A study of Mus musculus with 10 samples.

Results

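The genes described here code for 10 secreted proteins that sit in or bind to the extracellular matrix. They are the SPARC family members *Sparc*, *Sparcl1*, *Smoc1*, *Smoc2* and *Fstl1*, the thrombospondins *Thbs1*, *Thbs2*, *Thbs3* and *Thbs4*, and tenascin C (*Tnc*). They were taken by gene name from a table of 29268 mouse genes, each name matched 1 gene, and all 10 were among the 16993 genes with enough counts to be tested. Uterine RNA was sequenced from 5 HSD17B1TG and 5 wild-type (WT) mice aged 4 months, with 1 library per mouse. The HSD17B1TG mice are heterozygous FVB/N females that carry a human *HSD17B1* cDNA under a CMV-enhanced chicken beta actin promoter, which drives the estrogen-activating enzyme in all tissues and not in the uterus alone. They do not cycle, whereas the WT uteri used for histology in the same study were taken at random phases of the cycle, and the labels give no phase for the WT libraries. The question was how the transgene changes the uterine transcriptome. By ascending animal number, the mice are called TG1 to TG5 in the first group and WT1 to WT5 in the second.

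Matricellular proteins are secreted into the matrix but act less as its scaffold than as regulators of how cells attach to it, how growth factors reach their receptors and how collagen is assembled. SPARC and its relatives bind calcium and collagen, and tenascin C loosens cell adhesion in remodelling tissue. Thrombospondins bind integrins, and the protein of *Thbs1* also binds CD36 and CD47 and can release TGF-beta from its latent form. In the uterus such proteins are known from the stroma, the vessels and the muscle layer, all of which change over the cycle and under estrogen.

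The genes took 14817228 to 23271988 counts per library, and 3 counts in the library with the lowest total correspond to 0.202 CPM (counts scaled to the library total), a limit that covers counting error only. The mitochondrial share of the counts was 2.58% to 3.37% in WT and 1.94% to 7.57% in HSD17B1TG, with TG1, TG4 and TG5 above 5%. Levels are given as FPKM (counts scaled for gene length and by a size factor of each library). A gene was called changed where edgeR's quasi-likelihood test gave an adjusted p under 0.05, the fold change was over 2 and the mean FPKM was over 1 in either group. The markers written down for stroma (12 genes), smooth muscle (9), epithelium (10) and endothelium with pericytes (10) all passed the filter on low counts, and these are the main tissues of a uterus. The transgene is a human sequence that the mouse annotation does not count, so the genotype labels were not checked by it.

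Of the 10 genes, *Smoc2* and *Fstl1* were lower in the HSD17B1TG uterus by all of these thresholds and none was higher. The share of all tested genes called lower was 2.08% and the share called higher 2.16%. Log2 fold changes were negative in 7 of the 10 and positive in *Thbs1*, *Thbs2* and *Sparcl1*, with a median of −0.75 against 0.0021 over all tested genes. An unadjusted p under 0.05 was reached by 5 of the 10 (*Sparc*, *Smoc2*, *Fstl1*, *Thbs1* and *Thbs2*), against 26.1% of all tested genes. DESeq2 called 3 of them lower (*Smoc2*, *Fstl1* and *Sparc*) and none higher, with 3.87% and 5.44% of all tested genes called lower and higher. In whole-tissue RNA, fewer cells of a type and less RNA per cell cannot be told apart, which holds for every value given here.

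**Figure D1:**
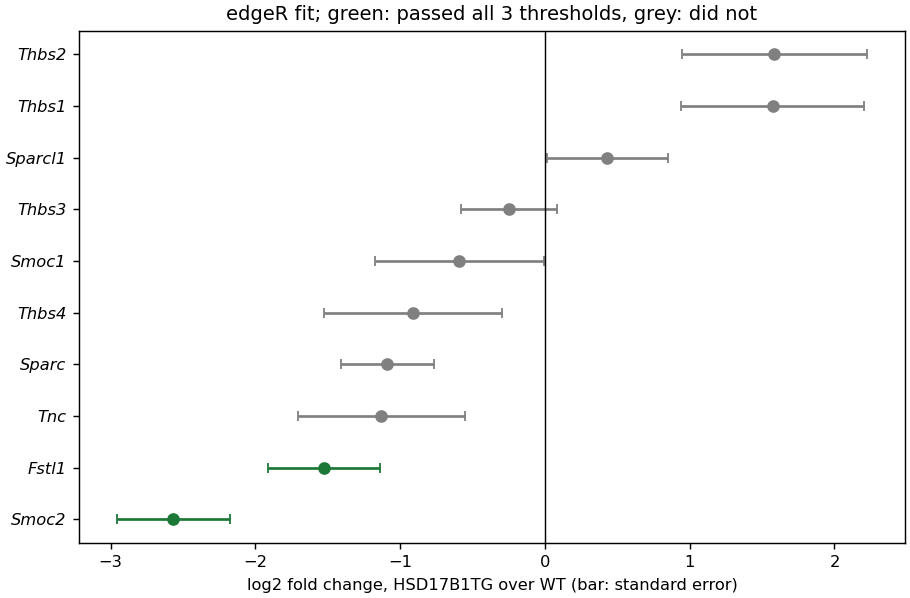
The log2 fold change of each of the 10 genes, HSD17B1TG over WT, with its standard error from edgeR (5 mice a group). Green marks the 2 genes that passed all thresholds, *Smoc2* at −2.57 and *Fstl1* at −1.52, and grey the others, of which 3 lie to the right of 0.

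Sequence upstream of the start is shown for *Thbs2* and *Thbs3*, a thrombospondin whose level varied widely between mice and one with a small difference between the groups, and for *Fstl1*, one of the called genes. The RefSeq promoter table of GRCm38.p6 had an entry for 6 of the 10 genes (*Fstl1*, *Sparc*, *Thbs2*, *Thbs3*, *Thbs4* and *Tnc*) and none for *Sparcl1*, *Smoc1*, *Smoc2* and *Thbs1*. The bases that lie in no annotated exon were taken from the 250 before the start and are written on the strand of the gene, 5′ to 3′, with motif matches in capitals.
Thbs2, chr17:14694263-14694512, minus strand: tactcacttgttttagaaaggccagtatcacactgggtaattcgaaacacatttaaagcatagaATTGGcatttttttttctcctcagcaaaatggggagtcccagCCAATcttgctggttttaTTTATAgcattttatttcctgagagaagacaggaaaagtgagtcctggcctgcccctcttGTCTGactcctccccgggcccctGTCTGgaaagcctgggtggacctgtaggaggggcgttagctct
Thbs3, chr3:89214930-89215179, plus strand: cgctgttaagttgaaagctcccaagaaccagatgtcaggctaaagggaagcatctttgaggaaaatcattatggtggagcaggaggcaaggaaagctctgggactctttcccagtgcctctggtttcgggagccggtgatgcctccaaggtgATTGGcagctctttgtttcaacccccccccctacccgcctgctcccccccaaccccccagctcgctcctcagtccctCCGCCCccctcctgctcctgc
Fstl1, chr16:37776805-37776872, plus strand: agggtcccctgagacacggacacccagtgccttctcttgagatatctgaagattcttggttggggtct
The motifs searched on both strands were the TATA box (TATAAA), the GC box (GGGCGG), the CCAAT box (CCAAT), the AP-1 site (TGANTCA), the nuclear receptor half-site (AGGTCA) and the SMAD element (CAGAC). The *Thbs2* window holds 1 TATA box on the opposite strand, 2 CCAAT boxes and 2 SMAD elements, and the *Thbs3* window holds 1 CCAAT box and 1 GC box. In *Fstl1* the 2 GC boxes of the window lie in its exonic part, which is not shown. Among 32851 promoters of the table, 12.4% hold the TATA box, 32.7% the GC box, 33.8% the CCAAT box and 42.2% the SMAD element in the same 250 bases. The AP-1 site (6.75% of promoters) and the nuclear receptor half-site (14.0%) were in none of the windows of the 6 genes. These are matches of letters in a short window and say nothing of binding.

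*Smoc2* codes for a SPARC-related protein with thyroglobulin-like and calcium-binding domains that is secreted into basement membranes. It lies on chromosome 17 from 14279506 to 14404790 on the plus strand of GRCm38 (ENSMUSG00000023886). It stood at 7.51, 12.1, 8.71, 4.11 and 6.24 FPKM in TG1 to TG5 and at 50.2, 81.5, 24.6, 24.9 and 46.8 FPKM in WT1 to WT5. Every HSD17B1TG mouse was below every WT mouse, and *Smoc2* was the only one of the 10 genes whose groups did not overlap, against 2.65% of all tested genes with groups that do not overlap and lower values in HSD17B1TG. The means were 7.74 ± 2.98 (SD, n = 5) in HSD17B1TG and 45.6 ± 23.3 in WT. *Smoc2* fell by 2.57 on the log2 scale, or 5.92-fold (standard error 0.39 in log2, adjusted p = 0.0177 in edgeR, two-sided exact permutation p = 0.00794, the smallest that 5 mice against 5 allow). The mean of *Smoc2* was above 94.2% of the tested genes in WT and above 61.3% in HSD17B1TG. The fold change was between −2.79 and −2.27 when any 1 mouse was left out, and the adjusted p was 0.0508 without TG5.

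An annotated antisense gene, *4930474M22Rik* (ENSMUSG00000117328), lies within *Smoc2* on the other strand over 9830 bases. It had 0.578 ± 0.352 FPKM in HSD17B1TG and 4.02 ± 0.80 in WT, and its log2 fold change was −2.77 with standard error 0.57 (adjusted p = 0.0270 in edgeR). The strand setting of the counting is not given in the sources used here, so reads of *Smoc2* and of this gene cannot be told apart where they overlap.

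*Smoc1* is the closest relative of *Smoc2* and codes for a protein with the same domains (ENSMUSG00000021136, chromosome 12 from 81026808 to 81186414). It stood at 122, 42.3, 26.2, 19.96 and 10.1 FPKM in TG1 to TG5 and at 49.0, 34.0, 85.5, 98.9 and 63.6 FPKM in WT1 to WT5. The highest value of all 10 mice was that of TG1 and the 3 lowest were those of TG3, TG4 and TG5, so the groups overlapped. The highest HSD17B1TG mouse was 12.0 times the lowest, against 2.91 times in WT. Its log2 fold change was −0.59 with standard error 0.58 (adjusted p = 0.560 in edgeR), within the spread between mice, and ran from −1.43 without TG1 to −0.34 without TG5. Per mouse, the log2 ratio of *Smoc2* to *Smoc1* was −2.08 ± 1.23 in HSD17B1TG and −0.59 ± 1.35 in WT, and the groups overlapped.

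*Fstl1* codes for follistatin-like 1, a secreted glycoprotein of mesenchymal cells (ENSMUSG00000022816, chromosome 16 from 37776873 to 37836514). It stood at 87.3, 42.7, 28.6, 47.2 and 20.7 FPKM in TG1 to TG5 and at 142.5, 127, 176, 66.6 and 136 FPKM in WT1 to WT5. The ranges met in 1 place, since TG1 was above WT4 while the other 4 HSD17B1TG mice were below every WT mouse. The means were 45.3 ± 25.8 and 129.7 ± 39.8 (SD, n = 5 each). *Fstl1* fell by 1.52 on the log2 scale, or 2.88-fold (standard error 0.38, adjusted p = 0.0446 in edgeR, two-sided exact permutation p = 0.0159). This adjusted p lies close to the threshold, and leaving out 1 mouse ended the call in 8 of 10 fits, with adjusted p between 0.0597 and 0.102 there, but it was kept without TG1 (adjusted p = 0.0151) and without WT4.

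*Sparc*, also known as osteonectin, binds collagen and guides the assembly of its fibrils (ENSMUSG00000018593, chromosome 11 from 55394500 to 55423183). It was among the most abundant transcripts, above 99.6% of the tested genes in WT. It stood at 442, 295, 249.3, 223 and 122 FPKM in TG1 to TG5 and at 409, 464, 622, 610.0 and 711 FPKM in WT1 to WT5. Again 4 of the 5 HSD17B1TG mice were below every WT mouse and TG1 alone reached into the WT range. The means were 266 ± 117 and 563 ± 124 (SD, n = 5 each). The log2 fold change of −1.09 (standard error 0.32) did not pass in edgeR (adjusted p = 0.0636, two-sided exact permutation p = 0.0159). It passed in DESeq2 (adjusted p = 0.00862), in limma's voom with quality weights (adjusted p = 0.0211), and in edgeR without TG1 (log2 fold change −1.34, adjusted p = 0.0240).

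*Sparcl1*, or hevin, is an anti-adhesive relative of SPARC found around vessels and smooth muscle (ENSMUSG00000029309, chromosome 5 from 104079111 to 104113733). It stood at 662, 246, 150.2, 573 and 183.5 FPKM in TG1 to TG5 and at 199, 251.8, 244, 264 and 382 FPKM in WT1 to WT5. TG1 and TG4 were above and TG3 and TG5 below every WT mouse, so the HSD17B1TG mice spread to both sides of WT. The means were 363 ± 237 and 268 ± 68.3 (SD, n = 5 each). Its log2 fold change was 0.43 with standard error 0.42 (adjusted p = 0.552 in edgeR), and it ran from 0.10 without TG1 to 0.61 without TG3.

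The pair was also compared within each mouse. The log2 ratio of *Sparcl1* to *Sparc* was 0.58, −0.26, −0.73, 1.36 and 0.59 in TG1 to TG5 and −1.04, −0.88, −1.35, −1.21 and −0.90 in WT1 to WT5. Its mean was 0.31 ± 0.82 (SD, n = 5) in HSD17B1TG and −1.07 ± 0.20 in WT. Every WT uterus thus held less *Sparcl1* than *Sparc*, and every HSD17B1TG mouse had a higher ratio than every WT mouse. No test is given for the ratio, which was looked at as a description of how the pair varies. The groups overlapped for *Smoc2* over *Smoc1* and *Thbs2* over *Thbs1*. How often the ratio of a gene pair sets these groups apart was not counted over other genes.

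**Figure D2:**
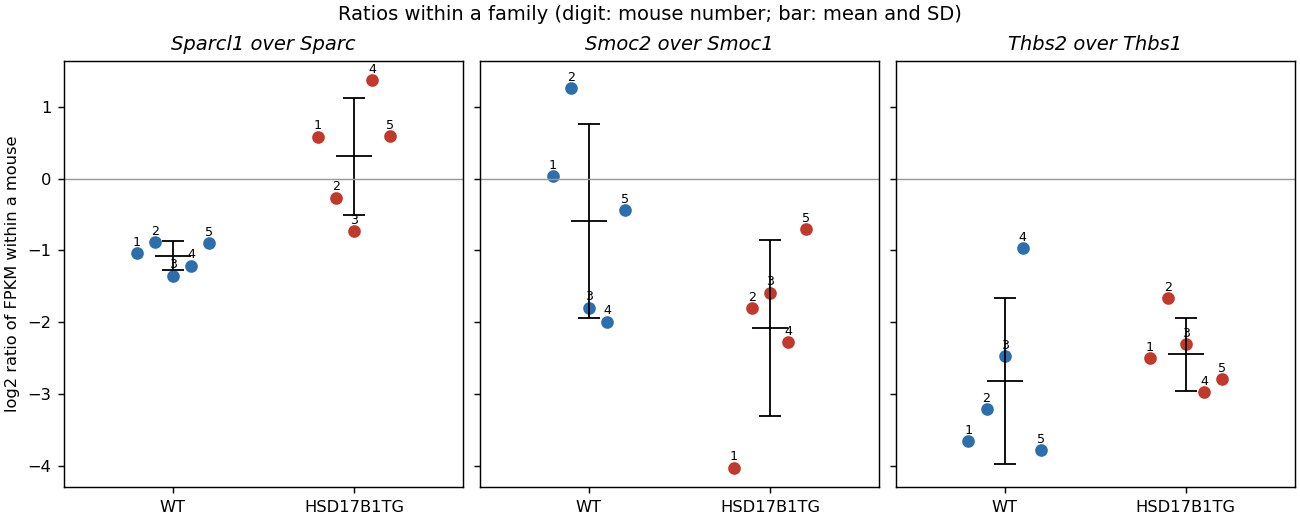
The log2 ratio of FPKM within each mouse for *Sparcl1* over *Sparc*, *Smoc2* over *Smoc1* and *Thbs2* over *Thbs1*, with digits for mouse numbers and bars for the mean and SD (5 mice a group). The groups are apart for *Sparcl1* over *Sparc*, from −1.35 to −0.88 in WT and from −0.73 to 1.36 in HSD17B1TG, and overlap for the other 2 ratios. How often other gene pairs set the groups apart was not counted.

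*Thbs1* codes for thrombospondin 1, the antiangiogenic form found in platelet granules and induced in stressed tissue, which also activates latent TGF-beta (ENSMUSG00000040152, chromosome 2 from 118111876 to 118127133). It stood at 141, 14.2, 14.2, 107.5 and 44.2 FPKM in TG1 to TG5 and at 19.4, 28.1, 11.5, 16.6 and 32.0 FPKM in WT1 to WT5. TG1, TG4 and TG5 were above every WT mouse, while TG2 and TG3 lay inside the WT range. The means were 64.3 ± 57.5 and 21.5 ± 8.41 (SD, n = 5 each), and the log2 fold change was 1.57 with standard error 0.63 (adjusted p = 0.147 in edgeR, two-sided exact permutation p = 0.198). It was 0.42 with voom, which here gave less weight to mice whose values lie far from the fit of their group, and 1.07 without TG1. These weights use no measure of RNA quality.

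*Thbs2* codes for the other trimeric thrombospondin, made by fibroblasts and smooth muscle (ENSMUSG00000023885, chromosome 17 from 14665500 to 14694235). It stood at 25.0, 4.47, 2.88, 13.7 and 6.39 FPKM in TG1 to TG5 and at 1.54, 3.04, 2.06, 8.50 and 2.33 FPKM in WT1 to WT5. The order of the HSD17B1TG mice began as for *Thbs1*, with TG1, TG4 and TG5 at the top, and a single WT mouse, WT4, stood above the other 4. The means were 10.5 ± 9.10 and 3.49 ± 2.85 (SD, n = 5 each), and the log2 fold change was 1.58 with standard error 0.64 (adjusted p = 0.148 in edgeR, two-sided exact permutation p = 0.0952). Without WT4 it was 2.22 and passed (adjusted p = 0.0383), and without TG1 it was 0.98 (adjusted p = 0.287).

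The 3 HSD17B1TG mice with the highest *Thbs1* and *Thbs2* were those with a mitochondrial share above 5% (TG1 5.74%, TG4 6.87%, TG5 7.57%), and they also had the 3 highest *Sparcl1* to *Sparc* ratios. In a fit of the other 2 HSD17B1TG mice against the 5 WT mice, chosen after seeing the data, the log2 fold change was −0.60 for *Thbs1*, 0.08 for *Thbs2* and −0.44 for *Sparcl1*, and the direction of *Thbs1* and *Sparcl1* turned. The mice left out are those with the highest *Thbs1* and *Thbs2*, so these values restate which mice were left out. In the same fit it was −2.13 for *Smoc2*, −1.86 for *Fstl1* and −1.05 for *Sparc*, and no member passed (adjusted p 0.110, 0.0962 and 0.116 in edgeR), in a fit that called 5 of all genes. The part of RNA quality in these values was not tested. Of 6 platelet markers in the table, 2 passed the filter, *Pf4* with 6.69 FPKM in HSD17B1TG and 5.98 in WT, and *Itga2b* with 3.96 and 1.72, which rose (log2 fold change 1.203, adjusted p = 0.0312 in edgeR, also called by DESeq2 and voom), while *Ppbp*, *Gp9*, *Gp1ba* and *Treml1* had means of at most 0.313 FPKM.

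**Figure D3:**
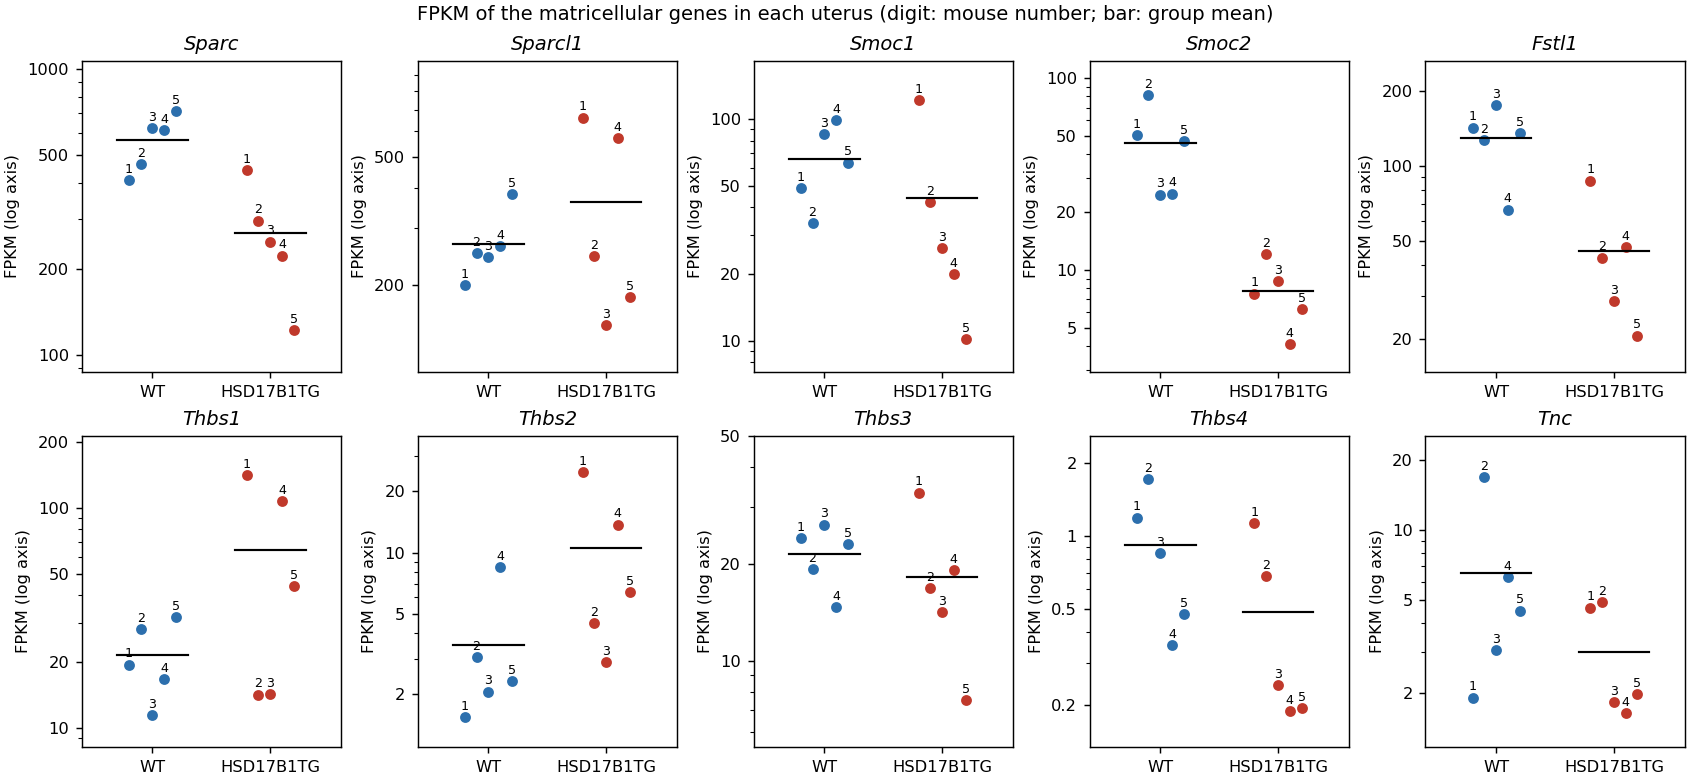
FPKM of each gene in each mouse on a log axis, with digits for mouse numbers and bars for the group mean (5 mice a group). *Smoc2* is the 1 gene whose groups are apart. In *Thbs1* and *Thbs2* mice 1, 4 and 5 of HSD17B1TG stand above mice 2 and 3.

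*Smoc2* and *Thbs2* are neighbours. They lie on opposite strands of chromosome 17, 260709 bases apart, with no other annotated protein-coding gene between them in GENCODE M21. Their log2 fold changes were −2.57 and 1.58, of which the first passed and the second did not.

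*Thbs3*, a pentameric thrombospondin best known from cartilage, had a small difference (ENSMUSG00000028047, chromosome 3 from 89215180 to 89226837). It stood at 33.3, 16.8, 14.2, 19.1 and 7.54 FPKM in TG1 to TG5 and at 24.1, 19.2, 26.5, 14.7 and 23.1 FPKM in WT1 to WT5. The HSD17B1TG range enclosed that of WT, and the log2 fold change was −0.25 with standard error 0.33 (adjusted p = 0.678 in edgeR). It was between −0.58 (without TG1) and −0.049 (without TG5) when any 1 mouse was left out. *Mtx1*, annotated on the other strand, covers the whole 11658 bases of *Thbs3* and had 7.92 FPKM in HSD17B1TG and 8.02 in WT. With the strand setting not given, reads of the 2 genes cannot be told apart there. *Muc1*, a mucin gene that lies 2220 bases downstream of *Thbs3* on the same strand, had 142 FPKM in HSD17B1TG and 29.3 in WT without passing (log2 fold change 2.28, adjusted p = 0.0982 in edgeR).

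*Thbs4*, the pentameric form of tendon and injured muscle (ENSMUSG00000021702, chromosome 13 from 92751590 to 92794818), was the lowest of the 10 at 1.13, 0.682, 0.242, 0.189 and 0.195 FPKM in TG1 to TG5 and 1.19, 1.71, 0.848, 0.353 and 0.475 FPKM in WT1 to WT5. These levels rest on 10 to 107 counts per mouse. The groups overlapped, and the log2 fold change was −0.91 with standard error 0.61 (adjusted p = 0.377 in edgeR). It was −1.48 without TG1 and −0.58 without WT2.

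*Tnc*, the adhesion-modulating glycoprotein gene of chromosome 4 (63959785 to 64047015, ENSMUSG00000028364), stood at 4.65, 4.91, 1.83, 1.64 and 1.97 FPKM in TG1 to TG5 and at 1.90, 16.9, 3.05, 6.29 and 4.50 FPKM in WT1 to WT5. WT2 was far above the other mice, and WT1, WT3 and WT5 were within the HSD17B1TG range. For *Tnc*, the log2 fold change was −1.13 with standard error 0.58 (adjusted p = 0.242 in edgeR) and −0.42 without WT2. Of the RNAs annotated antisense to or inside other members, *Gm26703* shares 4517 bases with *Sparcl1* (log2 fold change 1.38, adjusted p = 0.164 in edgeR), and *Mir3067* in *Smoc1* and *8030451A03Rik* in *Tnc* had too few counts to be tested. Among the other genes annotated in or within 5 kb of a member, *Gm43737* beside *Thbs3* had a log2 fold change of 0.25 (adjusted p = 0.473 in edgeR). *Gm17660* beside *Sparcl1*, *AC171111.1* beside *Smoc2*, and *Gm13986* and *Fsip1* beside *Thbs1* were too low to be tested, and *Gm29233*, which shares 597 bases with *Thbs1*, and *Mir92b* were not analysed here.

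Because FPKM are per length, levels can be ordered between genes. In WT the order of mean FPKM ran *Sparc* (563), *Sparcl1* (268), *Fstl1* (129.7), *Smoc1* (66.2), *Smoc2* (45.6), *Thbs1* and *Thbs3* (both 21.5), *Tnc* (6.53), *Thbs2* (3.49) and *Thbs4* (0.915). *Sparc* did not overlap *Sparcl1*, nor *Sparcl1* *Fstl1*, while every later pair of neighbours in this order overlapped. In HSD17B1TG *Sparcl1* (363) came before *Sparc* (266), and *Smoc2* (7.74) dropped to eighth place, below *Thbs2* (10.5). There, only *Tnc* (2.997) and *Thbs4* (0.487), last in the order, had values that did not overlap.

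Likeness between genes was measured as the root mean square distance between profiles of log2 CPM over the 10 mice, each scaled to mean 0 and SD 1, and carries no test. *Sparc* and *Smoc1* (0.499) and *Sparc* and *Fstl1* (0.524) were the closest pairs among the 10. Among 12660 other protein-coding genes, the nearest to *Fstl1* were *Nid2* (0.181), which codes for the basement membrane protein nidogen 2, and *Eva1b* (0.188), both called lower (log2 fold changes −1.64 and −1.05). The nearest to *Smoc2* were *Sar1a* (0.275) and *Slc29a2* (0.288), and the nearest to *Sparc* were *Tmem45a* (0.196) and *Ccdc106* (0.211). The nearest to *Thbs1* were *Klc3* (0.298) and *Nr1d1* (0.312), and to *Thbs2* *Pou6f1* (0.268) and *Mkx* (0.271), a tendon transcription factor. For *Sparcl1* they were *Lonp2* (0.229) and *Osbpl5* (0.255), for *Smoc1* *Aifm2* (0.323) and *Cntnap1* (0.333), and for *Thbs3* *Rtl8c* (0.209) and *Tmem198b* (0.280). *Thbs4* was nearest to *Chm* (0.211) and *Dnajc27* (0.352), and *Tnc* to *Dnajb14* (0.345) and *Zfp938* (0.447).

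**Figure D4:**
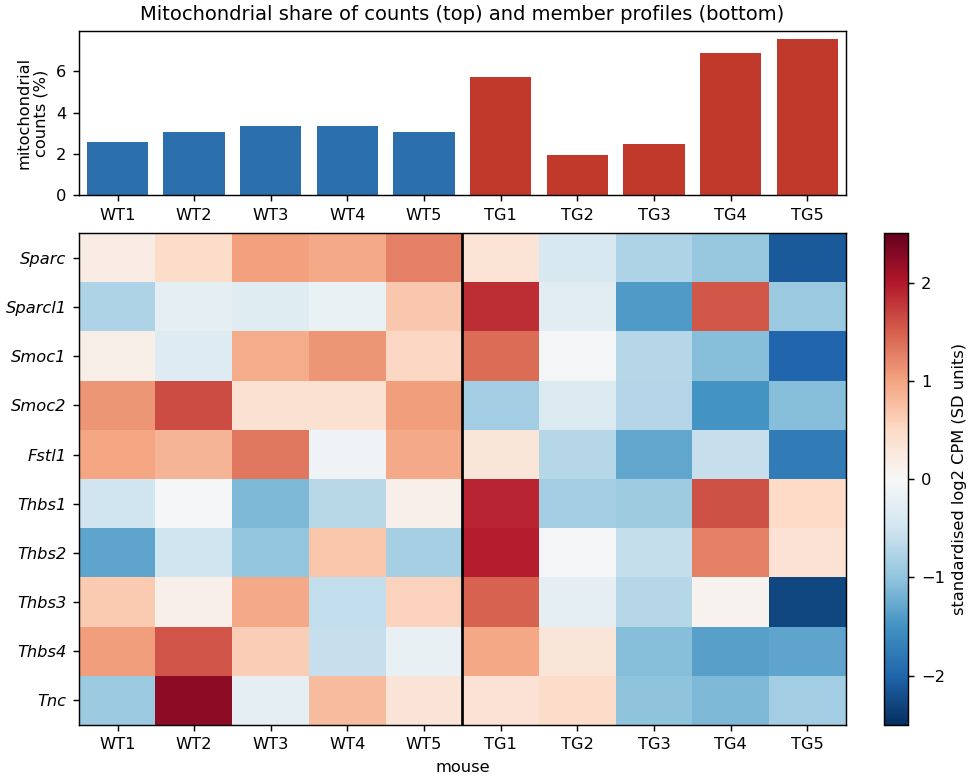
The share of counts on mitochondrial genes in each mouse (top, in percent) above the standardised log2 CPM of each gene (bottom, in SD units, red high and blue low). TG1, TG4 and TG5 are above 5% mitochondrial counts and are the HSD17B1TG mice with the highest *Thbs1* and *Thbs2*.

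Among other genes of the matricellular system, the relatives of the SPARC family gave no call. Of 4 tested, 3 were lower and 1 higher, with *Spock2* at −1.17 and *Fstl4* at 1.56, and 1 had an unadjusted p under 0.05 in edgeR. DESeq2 and voom called none of them. Of the other thrombospondin and tenascin relatives only *Tnxb*, tenascin X, passed the filter (log2 fold change −0.10), while *Comp*, *Tnr* and *Tnn* did not.

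In a list of 16 CCN and other matricellular genes, 14 were tested, of which 2 fell and none rose. *Wisp2* and *Wisp3* were too low to be tested. *Igfbp7*, which codes for an insulin-like growth factor binding protein of vessels and stroma, fell by 1.61 on the log2 scale with standard error 0.30 (edgeR adjusted p = 0.0229), from 651 ± 193 FPKM in WT to 214 ± 78.1 in HSD17B1TG (SD, n = 5 each). *Tgfbi*, a TGF-beta-induced matrix protein that binds integrins and collagen, fell by 1.93 (standard error 0.50, adjusted p = 0.0485), from 50.2 ± 29.9 to 13.2 ± 4.74. Of the genes tested, 9 were lower and 5 higher, with a median of −0.40. *Hapln1* (−2.58) and *Plat* (−1.49) had large differences that did not pass. *Hapln1* was also under the threshold of level, with means of 0.147 FPKM in HSD17B1TG and 0.879 in WT. WT2 was far above the other mice in both, at 2.74 FPKM for *Hapln1* and 72.4 for *Plat*.

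The list of collagens that SPARC and thrombospondins bind also holds the collagen chaperone gene *Serpinh1* and the cross-linking enzyme gene *Lox*. All 14 of its genes had lower values in HSD17B1TG (median −1.03 on the log2 scale). The mean log2 CPM of the list was 9.64 in TG1, inside the WT range of 9.46 to 9.67, and 7.37 to 8.69 in the other HSD17B1TG mice. Of the 14, 2 fell in edgeR, 9 had an unadjusted p under 0.05, and DESeq2 called 3 lower and voom 8. *Col3a1*, the fibrillar collagen of soft tissue, had 188 ± 104 FPKM against 512 ± 96.1 in WT (log2 fold change −1.46, adjusted p = 0.0445 in edgeR), and *Serpinh1*, the collagen chaperone HSP47, had 187 ± 87.2 against 427 ± 59.9 (log2 fold change −1.20, adjusted p = 0.0471). *Col1a1* (−1.18) and *Col5a1* (−1.08) did not pass.

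Receptors and partners of these proteins went both ways. Of 27 tested, 15 were higher and 12 lower (median 0.11), edgeR called none, 12 had an unadjusted p under 0.05, and DESeq2 and voom each called 1 lower. *Cd36*, a thrombospondin receptor, was at −1.46 (adjusted p = 0.137). *Ptprz1*, a tenascin-binding phosphatase, was at −2.74 (adjusted p = 0.0440 in edgeR) but missed the threshold of level, with means of 0.0805 FPKM in HSD17B1TG and 0.538 in WT. In the other direction, *Ptprs*, named after its values were seen, was at 0.80 (adjusted p = 0.0380 in edgeR) and missed the threshold of fold change. *Sdc4*, also named after its values were seen, was lower at −0.61 (adjusted p = 0.0405 in edgeR) and missed the same threshold. In the list of 15 TGF-beta ligands, latency proteins and targets, *Ltbp2* rose and none fell.

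*Ltbp2* codes for a matrix protein of the latent TGF-beta binding family. It stood at 1.38, 3.24, 6.92, 7.02 and 11.4 FPKM in TG1 to TG5, every one above the WT range of 0.197 to 0.661. Its log2 fold change was 3.77 with standard error 0.54 (adjusted p = 0.0159 in edgeR), and the median of that list was 0.07. *Tgfb2*, a TGF-beta ligand, was at −0.97 and did not pass. Among 15 proteases and antiangiogenic partners, 6 were higher and 9 lower (median −0.11), edgeR called none, 4 had an unadjusted p under 0.05, and DESeq2 called 1 higher and 2 lower. *Mmp9* was at 1.72 and *Adamts1*, which is antiangiogenic like thrombospondins, at −1.53.

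**Figure D5:**
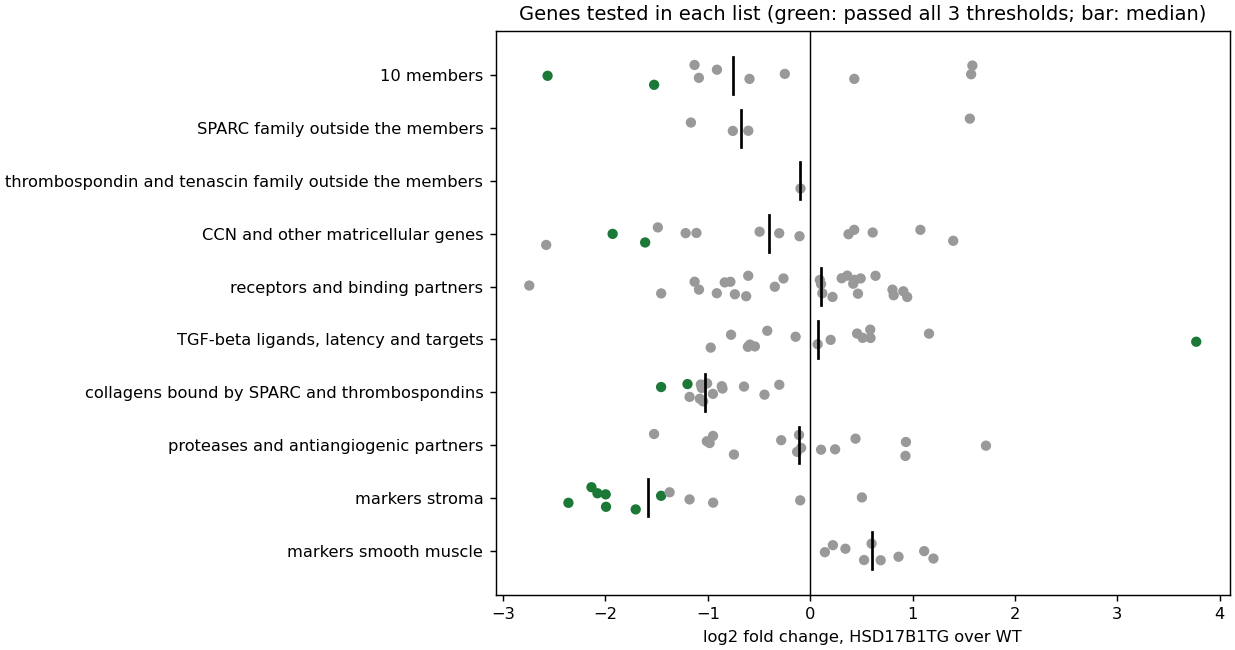
The log2 fold change of every tested gene of each list, HSD17B1TG over WT, with a bar for the median and green for genes that passed all thresholds. The genes of the collagen list all lie to the left of 0 (median −1.03), the stroma markers have a median of −1.58 and the smooth muscle markers lie to the right of 0 without a call.

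Most stroma markers were lower along with these genes. Of 12, 11 were lower and 7 fell (*Pdgfra*, *Col3a1*, *Hoxa10*, *Hoxa11*, *Hand2*, *Thy1* and *Mfap4*), while the abundant *Lum* (log2 fold change 0.51) and *Dcn* (−0.10) did not follow. The mean log2 CPM of the 12 lay between 6.97 and 8.36 in HSD17B1TG and between 8.17 and 9.33 in WT. *Col1a1* and *Col3a1* are in both this list and the collagen list. TG1 had the highest stroma level of the HSD17B1TG mice and WT4 the lowest of the WT mice, and these are the pair of mice at which the ranges of *Fstl1* overlapped. All 9 smooth muscle markers were higher in HSD17B1TG and edgeR, DESeq2 and voom called none (0 had an unadjusted p under 0.05), with mean log2 CPM between 7.49 and 10.35 against 6.45 and 9.87. In this list TG1 and WT4 were each the highest of their group, as they were for *Thbs2*. The part of cell composition in the values of *Smoc2*, *Fstl1*, *Sparc* and *Thbs2* was not tested.

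The other marker lists gave fewer calls. For endothelium with pericytes, the mean log2 CPM was 3.85 to 5.64 in HSD17B1TG and 5.05 to 6.16 in WT, with 9 of 10 genes lower, and for epithelium it was 6.46 to 8.68 and 5.98 to 7.20, with 9 of 10 higher. EdgeR called none in either list, with 4 and 7 genes at an unadjusted p under 0.05, while DESeq2 called 2 endothelial or pericyte genes lower and 4 epithelial genes higher. Of 8 tested leucocyte markers, 5 were higher and 3 lower. *Laptm5*, *Cd68* and *Itgam* rose, whereas *Ptprc* and *Cd52*, which mark leucocytes in general, had log2 fold changes of −1.08 and −1.37 that did not pass (adjusted p = 0.0558 and 0.0639 in edgeR). DESeq2 called 4 of the 8 higher and 2 lower. The mean of the 8 was 4.25 to 4.72 against 3.33 to 3.76. For the 2 platelet markers it was 2.60 to 4.14 against 2.03 to 3.02, for 4 mesothelium markers 3.66 to 5.87 against 0.45 to 4.80, and for 4 oviduct markers 2.06 to 2.93 against 2.03 to 3.01. The 4 adipocyte markers (*Adipoq*, *Plin1*, *Cidec* and *Lep*) had too few counts to be tested and were highest in TG4, where *Adipoq* had 13.7 FPKM against at most 3.09 in any other mouse. TG4 was also among the mice highest in *Sparcl1*, *Thbs1* and *Thbs2*, and the part of adipose tissue in those values was not tested.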

How the data were processed

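RNA-seq was made from whole uterus of 5 HSD17B1TG and 5 WT mice. The authors mapped the reads with HISAT2 2.0.5 to the mouse genome (GRCm38) and deposited, for each gene and mouse, a raw count, a signal that is the count divided by a size factor, and FPKM scaled by the same factor. The counting program is not given in the sources used here. Deposited columns with the authors' own log2 fold change, p-value and adjusted p-value, and their enrichment tables, were not used.

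The main test was the quasi-likelihood test of edgeR 4.0.16 in R 4.3.3 on these counts, after filterByExpr and with TMM factors. Adjusted p are Benjamini-Hochberg values over the 16993 genes. The exact permutation test ran over 252 assignments of mice to groups on log2(FPKM + 1). The methods were run on simulated counts with the same set spread for every gene. That spread was not taken from these mice, so the simulation does not show how the methods behave at theirs. Alternatives were DESeq2 1.42.0, limma 3.58.1 (voom, or log2 FPKM with pseudocounts of 1 and 0.1), other size factors, no filter, adjusted p alone and each mouse left out. CPM used a prior count of 2.

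The genes named are all 10 members, the called genes of each list with up to 2 uncalled ones of largest change, the 2 nearest profiles, and annotated overlaps or neighbours. Neighbours were sought within 5 kb. Marker genes, genes of a list too low to be tested, *Lox*, *Ptprs* and *Sdc4* were named outside this rule. One gene of the lists is not reported here. The members and lists were chosen with earlier results of these data known. The mice are separate animals, and the labels name no batch.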

Additional observations from a re-analysis of the deposited data

Results flagged for a closer look

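Dixon's ratio sets the distance of 1 mouse to the next against the range of its group. It was large in 2 of the 20 sets of 5 mice (10 genes in 2 groups). For normally distributed values, chance alone gives about 1 in 20. The ratio was taken on FPKM and not on a log scale, so that rate may not hold here. *Smoc1* stood at 122 FPKM in TG1, with the other HSD17B1TG mice between 10.1 and 42.3 (ratio 0.712). *Thbs2* stood at 8.50 FPKM in WT4, with the other WT mice between 1.54 and 3.04 (ratio 0.785).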

How the results depend on the processing

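All 10 genes kept the sign of their log2 fold change under the alternatives that used all 10 mice. *Smoc2* and *Fstl1* were called in each of these, and *Sparc* was also called with DESeq2 (−1.08) and voom (−1.04). In the fit on mice with a mitochondrial share of at most 5%, added after seeing the data and with 2 HSD17B1TG mice, *Smoc2* (−2.13) and *Fstl1* (−1.86) lost their call, 0 members were called lower, and *Sparcl1* (−0.44) and *Thbs1* (−0.60) turned. That fit has fewer mice and called 5 of all genes higher and 0 lower, and the mice it leaves out are those highest in *Thbs1*. Of all genes, DESeq2 called 925 higher and 658 lower, voom 1046 and 635, adjusted p alone called 568 higher, and limma on log2(FPKM + 1) called 228 lower, against 367 and 354 in edgeR.

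Leaving out 1 mouse at a time gave 0 to 3 members called lower (0 without TG5, 3 without TG1) and 0 to 1 called higher (*Thbs2* without WT4), and 38 to 888 higher and 27 to 651 lower among all genes. The log2 fold change ranged from −1.34 to −0.90 for *Sparc*, from −2.79 to −2.27 for *Smoc2*, from −1.90 to −1.34 for *Fstl1* and from 0.98 to 2.22 for *Thbs2*. Depth limits *Thbs4* most, with 10 counts in its lowest mouse. No paired analysis was possible because the groups share fewer than 2 of the unexplained numbers at the end of their labels, and nothing ties these to a litter or batch.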
